A study of Homo sapiens with 8 samples.

Results

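The genes described here make, pack and store catecholamines. They are 10 genes, TH, DDC, DBH, SLC18A1, SLC18A2, SLC6A2, CHGA, CHGB, SCG2 and SCG3, of the 19774 genes that have a probe set with exactly 1 symbol on the array. The members hold 20 of 54715 probe sets, each gene was read from its brightest probe set over the 8 arrays, and all 10 reached the level filter and were tested among 14517 genes. Expression was measured on Affymetrix arrays in total RNA of 4 human neuroblastoma cell lines, with 1 array for each line and treatment. Each line received 2.5 µM ciclopirox, an antifungal agent that chelates iron, or vehicle for 48 h in RPMI medium with fetal calf serum. The lines were NB1691, SKNBE2, SKNAS/shHIF1a and SKNAS. SKNAS/shHIF1a is a stable knockdown line for HIF1A, a transcription factor subunit that low oxygen stabilises. It derives from SKNAS, so these lines are not independent of each other. The labels give SKNAS a c-Myc status and the other 3 lines an N-Myc status, and the study set out, by its title, to target Myc signalling through JMJD2B, a histone demethylase.

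Neuroblastoma arises from the sympathoadrenal lineage, which makes noradrenaline. Tyrosine hydroxylase (TH) turns tyrosine into L-DOPA, the rate-limiting step, aromatic L-amino acid decarboxylase (DDC) turns L-DOPA into dopamine, and dopamine beta-hydroxylase (DBH) turns dopamine into noradrenaline inside vesicles. The vesicular monoamine transporters SLC18A1 and SLC18A2 load amines into granules, and SLC6A2 takes noradrenaline back up from outside the cell. Chromogranins A and B (CHGA, CHGB) and secretogranins II and III (SCG2, SCG3) are acidic proteins of dense-core granules, the stores in which amines and peptides wait for regulated release.

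Promoter sequences are shown because TH, DBH and CHGA are known targets of factors that bind the cyclic AMP response element (CRE), and most of the members were at higher levels in the same lines. RefSeq windows of the 250 bases before the start (build GRCh38.p14) were matched for 5 of the 10 genes, with 6 windows because DDC has 2. The full CRE, TGACGTCA, was found in the window of CHGA, beginning 54 bases before the start, and of SLC18A2, beginning 48 bases before it. The shorter core TGACG, which every full CRE contains on both strands, was also found in DBH, 181 bases before the start. Capitals mark these matches in the windows below, and SCG3 is shown for contrast as a window with no match.
DBH, chr9:133636113-133636362, plus strand: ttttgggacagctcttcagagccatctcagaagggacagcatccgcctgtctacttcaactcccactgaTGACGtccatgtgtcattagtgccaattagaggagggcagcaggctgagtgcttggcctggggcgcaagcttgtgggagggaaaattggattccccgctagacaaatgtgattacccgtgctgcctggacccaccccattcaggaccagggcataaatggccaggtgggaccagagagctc
SLC18A2, chr10:117240864-117241113, plus strand: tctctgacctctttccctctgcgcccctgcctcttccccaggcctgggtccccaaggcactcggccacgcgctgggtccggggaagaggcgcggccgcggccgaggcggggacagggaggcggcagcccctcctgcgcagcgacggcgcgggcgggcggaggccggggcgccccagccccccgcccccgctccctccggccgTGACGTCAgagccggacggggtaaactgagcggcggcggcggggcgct
CHGA, chr14:92922900-92923149, plus strand: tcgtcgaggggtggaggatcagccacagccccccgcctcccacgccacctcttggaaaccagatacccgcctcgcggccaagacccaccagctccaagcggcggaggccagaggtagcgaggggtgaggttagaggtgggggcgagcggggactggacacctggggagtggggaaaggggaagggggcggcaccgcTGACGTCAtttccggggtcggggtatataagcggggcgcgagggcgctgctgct
SCG3, chr15:51681253-51681502, plus strand: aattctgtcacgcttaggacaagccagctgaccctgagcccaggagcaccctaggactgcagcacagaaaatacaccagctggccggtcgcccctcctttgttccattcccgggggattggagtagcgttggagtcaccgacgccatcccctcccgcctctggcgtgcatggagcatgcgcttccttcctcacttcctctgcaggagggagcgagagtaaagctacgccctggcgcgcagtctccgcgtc
Of 35116 RefSeq windows of this length, 1.65% hold TGACGTCA and 21.2% hold TGACG on either strand. The homeobox core ATTA stood in the window of DBH, with the nearest match 71 bases before the start, and in both windows of DDC, against 47.4% of all windows. GGGCGG, the GC box, stood in CHGA and SLC18A2 (42.6% of all windows). The E-box CACGTG, the site that Myc proteins prefer, stood in 0 of the 6 windows (6.34% of all windows). The hypoxia core ACGTG, which every such E-box contains, stood in 1 window of DDC (18.5% of all windows), and TGANTCA, the AP-1 site, stood in 0 of 6 (6.57% of all windows). A match says only that these letters are present.

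Array medians lay between log2 3.47 and 3.52. HIF1A, the target of the knockdown, was at log2 11.09 with ciclopirox and 11.71 with vehicle in SKNAS/shHIF1a, against 11.94 with ciclopirox and 12.25 with vehicle in SKNAS. MYCN, which encodes N-Myc, ranged over log2 11.77 to 12.53 in NB1691 and SKNBE2, against 5.65 with ciclopirox and 5.41 with vehicle in SKNAS/shHIF1a and 3.36 with ciclopirox and 2.77 with vehicle in SKNAS. MYC, which encodes c-Myc, ranged over 2.66 to 3.28 in NB1691 and SKNBE2, against 9.23 with ciclopirox and 9.86 with vehicle in SKNAS/shHIF1a and 9.10 with ciclopirox and 10.16 with vehicle in SKNAS. The levels of both genes in the line labelled SKNAS/shHIF1a were thus closer to those of SKNAS than to those of the other lines labelled N-Myc, and lines were grouped here by origin and not by that label. The 6 markers of noradrenergic neuroblasts measured beside TH and DBH averaged log2 10.14 to 10.54 per array in NB1691 and SKNBE2, against 7.83 to 8.82 in the SKNAS-derived lines. Of these 6, ELAVL4 and HAND2 overlapped between the line groups. ELAVL4 read 11.38 with vehicle in SKNAS/shHIF1a, against 10.90 with ciclopirox and 10.53 with vehicle in SKNBE2. HAND2 read 4.84 with vehicle in SKNAS, against 4.63 with ciclopirox in NB1691. The mean of the 7 mesenchymal markers ran opposite to the noradrenergic mean, at 6.96 to 7.76 in NB1691 and SKNBE2 against 9.87 to 10.78 in the SKNAS-derived lines. TWIST1, a mesenchymal marker, was an exception and read 11.37 to 11.55 in NB1691 and SKNBE2 against 10.04 to 11.29 in the SKNAS-derived lines. CD44, another mesenchymal marker, overlapped between the line groups, with 8.89 with vehicle in NB1691 against 8.64 with vehicle in SKNAS/shHIF1a. No marker was at 0 on any array, and probe sets without signal read near log2 3 here. The 3 Schwann cell markers averaged 3.07 to 3.60 and the 4 adrenal cortex markers 2.69 to 3.46 over all arrays. STAR, an adrenal cortex marker, read 5.46 with ciclopirox and 4.79 with vehicle in SKNBE2. Among 4 immune markers PTPRC stood apart, with 3.03 to 3.29 in NB1691 and SKNBE2 against 6.34 to 11.53 in the SKNAS-derived lines. CD68 did not follow it. It read 5.38 with ciclopirox and 4.31 with vehicle in NB1691, 2.93 and 3.09 in SKNBE2, and 3.06 to 4.45 in the SKNAS-derived lines. CD3E and CD14 read 2.57 to 3.35 on every array. Of 3 endothelial markers PECAM1 read 5.46 with ciclopirox and 3.97 with vehicle in SKNAS/shHIF1a. Of 3 epithelial markers, the keratin KRT18 read 3.08 to 3.38 in NB1691 and SKNBE2 against 6.69 to 10.87 in the SKNAS-derived lines, while EPCAM, at least 3.56 in NB1691 and SKNBE2 against 3.05 to 3.34 in the SKNAS-derived lines, ran the other way and CDH1 stayed between 2.93 and 3.26 on every array. The part of these markers in the line differences below was not tested. In bulk RNA, fewer cells that express a gene and less RNA per cell cannot be told apart.

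For 8 of the 10 genes the line means were further apart than the ciclopirox and vehicle arrays of any line. CHGA and SCG2 were the exceptions. That describes the readings only, and the share of all genes with such a spread was not counted. TH, DBH and SCG3 were higher in NB1691 and SKNBE2 than in SKNAS/shHIF1a and SKNAS. Over line means, 3 of the 10 members were higher in NB1691 and SKNBE2 and 0 were lower (limma, adjusted p under 0.05), against 1.27% of all tested genes called higher and 2.4% called lower. In this test and the others over 4 lines, SKNAS and its derivative counted as separate lines, so errors and p-values may be too small. The median difference of the members was 4.10 on the log2 scale, beside 0.04 over all tested genes, and 9 of 10 had an unadjusted p under 0.05, against 23.2% of all genes. These counts rest on both SKNAS-derived lines: 0 members, and 0 genes of any kind, were called without SKNAS or without SKNAS/shHIF1a, 5 members without NB1691 and 4 without SKNBE2. Where line groups are said below not to overlap, this describes the readings only. The share of all genes for which that holds was not counted.

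**Figure D1:**
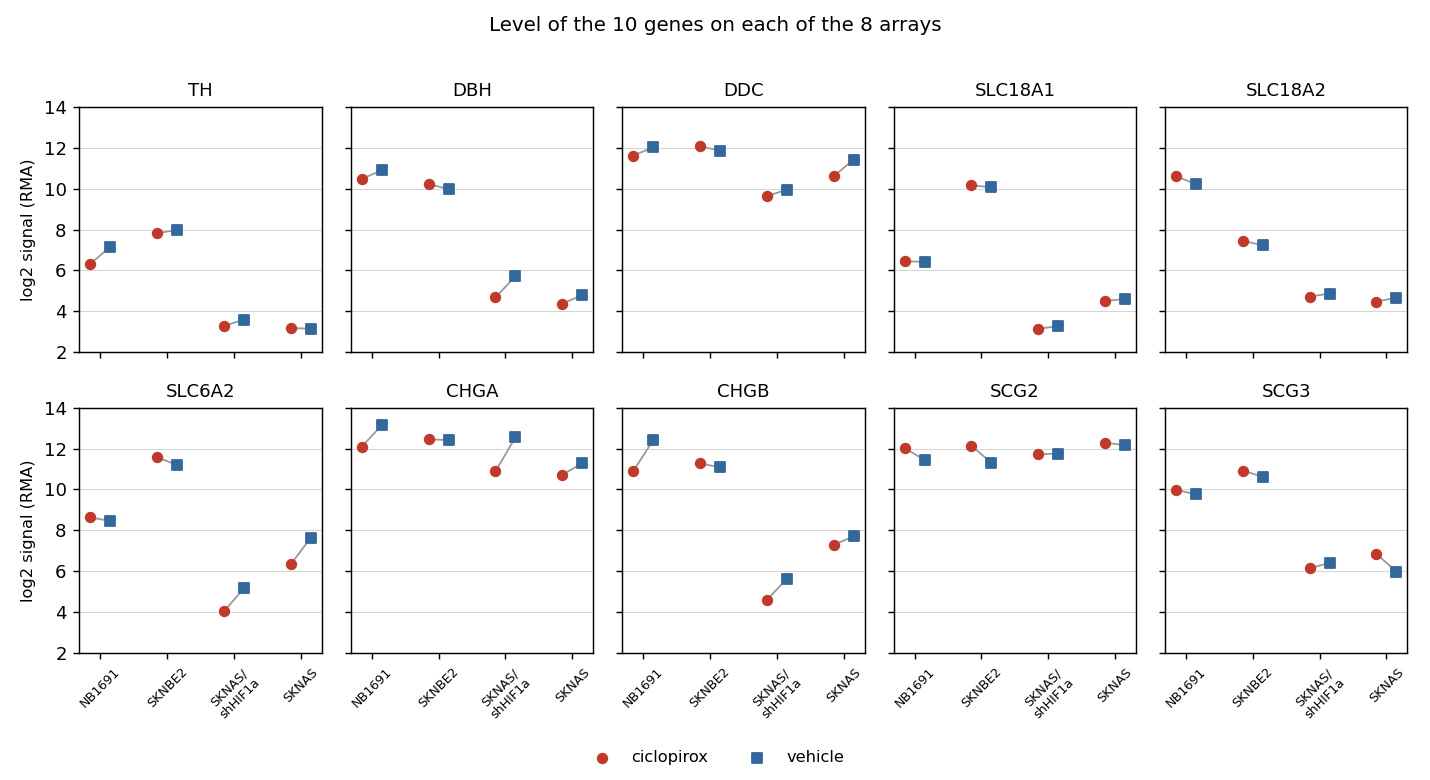
Log2 signal (RMA, vertical axes) of each of the 10 genes on the 8 arrays, with ciclopirox as red circles and vehicle as blue squares, joined within a line (horizontal axes). Levels may be compared within a panel but not between panels. DBH reads 9.97 to 10.90 in NB1691 and SKNBE2 against 4.37 to 5.72 in the SKNAS-derived lines, while SCG2 lies between 11.31 and 12.28 on every array.

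Among the enzymes, with ciclopirox TH stood at log2 6.32 in NB1691, 7.82 in SKNBE2, 3.28 in SKNAS/shHIF1a and 3.17 in SKNAS, and with vehicle at 7.16 in NB1691, 7.99 in SKNBE2, 3.59 in SKNAS/shHIF1a and 3.15 in SKNAS. NB1691 and SKNBE2 did not overlap with the SKNAS-derived lines, whose readings were close to the level of probe sets without signal. TH was higher by 4.02 ± 0.47 in NB1691 and SKNBE2 (limma's moderated SE over 4 lines, adjusted p = 0.0464). With no filter on low levels TH did not pass (adjusted p = 0.0603). The SEs, here and below, draw in part on the spread of all tested genes. DBH was at 10.49 with ciclopirox and 10.90 with vehicle in NB1691, at 10.24 with ciclopirox and 9.97 with vehicle in SKNBE2, at 4.67 with ciclopirox and 5.72 with vehicle in SKNAS/shHIF1a, and at 4.37 with ciclopirox and 4.79 with vehicle in SKNAS. DBH gave the largest difference of the 10 genes, 5.51 ± 0.36 (adjusted p = 0.0194), and the groups of lines did not overlap. A second DBH probe set, with a mean level of log2 3.29, differed by 0.08 between the groups. The estimate therefore belongs to the brighter probe set. With ciclopirox DDC stood at log2 11.62 in NB1691, 12.07 in SKNBE2, 9.64 in SKNAS/shHIF1a and 10.61 in SKNAS, and with vehicle at 12.03 in NB1691, 11.87 in SKNBE2, 9.95 in SKNAS/shHIF1a and 11.43 in SKNAS. The decarboxylase read above log2 9 on every array, the line groups did not overlap, and SKNAS/shHIF1a had the lowest readings. DDC differed by 1.49 ± 0.48 (adjusted p = 0.194), and its second probe set by 2.01.

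The vesicular transporters separated NB1691 from SKNBE2. SLC18A1 was at 6.45 with ciclopirox and 6.41 with vehicle in NB1691, at 10.16 with ciclopirox and 10.07 with vehicle in SKNBE2, at 3.15 with ciclopirox and 3.26 with vehicle in SKNAS/shHIF1a, and at 4.50 with ciclopirox and 4.60 with vehicle in SKNAS. The 2 arrays of each line lay close together and no line overlapped with another. SLC18A2 was at 10.62 with ciclopirox and 10.22 with vehicle in NB1691, at 7.44 with ciclopirox and 7.23 with vehicle in SKNBE2, at 4.72 with ciclopirox and 4.87 with vehicle in SKNAS/shHIF1a, and at 4.47 with ciclopirox and 4.66 with vehicle in SKNAS. For this transporter the high line was NB1691, with SKNBE2 between it and the SKNAS-derived lines. SLC18A1 differed by 4.40 ± 1.44 (adjusted p = 0.197) and SLC18A2 by 4.20 ± 1.14 (adjusted p = 0.151) between the line groups. The second SLC18A2 probe set differed by 1.90, with SKNBE2 at 4.77 with ciclopirox and 4.33 with vehicle, close to the 3.89 to 4.14 of the SKNAS-derived lines. With ciclopirox SLC6A2 stood at log2 8.63 in NB1691, 11.58 in SKNBE2, 4.03 in SKNAS/shHIF1a and 6.34 in SKNAS, and with vehicle at 8.45 in NB1691, 11.19 in SKNBE2, 5.17 in SKNAS/shHIF1a and 7.64 in SKNAS. The line groups did not overlap, with the highest readings of this noradrenaline transporter in SKNBE2 and the lowest in SKNAS/shHIF1a. SLC6A2 differed by 4.17 ± 1.37 (adjusted p = 0.197), and its 5 probe sets at or above the filter gave 2.15 to 4.17.

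Among the granins, the readings of SCG3 and CHGB separated the line groups and those of CHGA and SCG2 did not. SCG3 was at 9.97 with ciclopirox and 9.77 with vehicle in NB1691, at 10.92 with ciclopirox and 10.62 with vehicle in SKNBE2, at 6.14 with ciclopirox and 6.41 with vehicle in SKNAS/shHIF1a, and at 6.85 with ciclopirox and 5.96 with vehicle in SKNAS. The line groups did not overlap, and SCG3, which sorts granins to the granule membrane, was higher by 3.98 ± 0.38 in NB1691 and SKNBE2 (adjusted p = 0.0334). With ciclopirox CHGB stood at log2 10.89 in NB1691, 11.28 in SKNBE2, 4.58 in SKNAS/shHIF1a and 7.29 in SKNAS, and with vehicle at 12.41 in NB1691, 11.08 in SKNBE2, 5.63 in SKNAS/shHIF1a and 7.71 in SKNAS. CHGB also had groups that did not overlap, with a difference of 5.11 ± 0.91 (adjusted p = 0.0828). CHGA was at 12.10 with ciclopirox and 13.15 with vehicle in NB1691, at 12.46 with ciclopirox and 12.42 with vehicle in SKNBE2, at 10.88 with ciclopirox and 12.55 with vehicle in SKNAS/shHIF1a, and at 10.72 with ciclopirox and 11.28 with vehicle in SKNAS. The vehicle array of SKNAS/shHIF1a reached the range of NB1691 and SKNBE2, so the groups overlapped, and CHGA differed by 1.17 ± 0.32 (adjusted p = 0.154). With ciclopirox SCG2 stood at log2 12.03 in NB1691, 12.14 in SKNBE2, 11.72 in SKNAS/shHIF1a and 12.28 in SKNAS, and with vehicle at 11.44 in NB1691, 11.31 in SKNBE2, 11.75 in SKNAS/shHIF1a and 12.18 in SKNAS. All 8 readings of SCG2 were high and the groups overlapped (-0.25 ± 0.25, adjusted p = 0.601).

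Contrasts between single lines ordered the levels further. They use the spread left after a common treatment term and so treat the ciclopirox and vehicle arrays of a line as its repeats. With 1 array for each line and treatment, these calls, here and below, describe these samples, and their p-values may be too small. NB1691 was higher than SKNAS for 8 members (18.9% of all genes were called higher), SKNBE2 than SKNAS for 9 (14.8%), NB1691 than SKNAS/shHIF1a for 8 (18.7%) and SKNBE2 than SKNAS/shHIF1a for 8 (14.8%), with 0 members lower in any of these contrasts. Of all 14517 tested genes, 2727 were called lower in NB1691 than in SKNAS and 2334 in SKNBE2 than in SKNAS. Against SKNAS/shHIF1a, 2693 were called lower in NB1691 and 2367 in SKNBE2. The members outside the calls were DDC and SCG2 for NB1691 against SKNAS, SCG2 for SKNBE2 against SKNAS, and CHGA and SCG2 in both contrasts with SKNAS/shHIF1a. SLC6A2 and CHGA lost the call of NB1691 over SKNAS without any 1 of the 4 arrays of these lines, with adjusted p of 0.0547 to 0.272 for SLC6A2 and 0.0723 to 0.136 for CHGA. For SKNBE2 over SKNAS, DDC and CHGA lost it without the ciclopirox array of SKNBE2 (adjusted p = 0.214 for DDC and 0.217 for CHGA), without the ciclopirox array of SKNAS (0.256 for DDC and 0.143 for CHGA) and without the vehicle array of SKNAS (0.0516 for DDC and 0.202 for CHGA). With no filter on low levels SLC6A2 did not pass in NB1691 over SKNAS (adjusted p = 0.057, and 0.0657 with probe sets averaged), nor CHGA in SKNBE2 over SKNAS (adjusted p = 0.0501), and with only the 4 arrays of SKNBE2 and SKNAS DDC did not (adjusted p = 0.0646). DDC passed in NB1691 over SKNAS with probe sets averaged (adjusted p = 0.0434), with a filter at the 60th percentile (0.0498) and with an intensity trend (0.0265). Of the related lists described below, these 4 contrasts called 5 to 6 of 14 cofactor, breakdown and uptake genes higher and 2 lower, 2 to 3 of 7 peptide-processing genes higher and 2 to 3 lower, and 6 to 12 of 21 granule biogenesis genes higher and 1 to 3 lower. They called 9 to 13 of 23 exocytosis genes higher and 0 to 4 lower, and 7 to 9 of 18 transcription factors higher and 2 to 4 lower.

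NB1691 and SKNBE2 differed from each other in 4 members. SLC18A2 was higher in NB1691 by 3.08 ± 0.21 (adjusted p = 0.000409), against 12.9% of all genes called higher. SLC18A1 (-3.68 ± 0.16, adjusted p = 0.000116), SLC6A2 (-2.84 ± 0.46, adjusted p = 0.00882) and TH (-1.16 ± 0.24, adjusted p = 0.019) were lower in NB1691 than in SKNBE2, against 12.2% of all genes called lower. TH did not pass without the ciclopirox array of NB1691 (adjusted p = 0.0617) or without the ciclopirox (adjusted p = 0.118) or the vehicle array (adjusted p = 0.0778) of SKNBE2, and SLC6A2 did not without the ciclopirox array of SKNBE2 (adjusted p = 0.0614). SCG3 (-0.90 ± 0.28, adjusted p = 0.0673, and 0.0435 with only the 4 arrays of these lines), DBH, DDC, CHGA, CHGB and SCG2 were not called in this contrast.

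Between the knockdown derivative and its parent 1 member was called. SLC18A1 was lower in SKNAS/shHIF1a than in SKNAS by 1.35 log2 units (-1.35 ± 0.16, adjusted p = 0.0199), against 0.84% of all genes called lower and 0.744% called higher. That call ended when any 1 of the 4 arrays of these lines was left out (adjusted p of 0.0826 to 0.203). The readings of SLC18A1 in SKNAS/shHIF1a, 3.15 and 3.26, were near those of probe sets without signal, so the size of this difference is limited by that floor. CHGB (-2.39 ± 0.41, adjusted p = 0.0601), SLC6A2 (-2.39 ± 0.46, adjusted p = 0.0853) and DDC (-1.22 ± 0.26, adjusted p = 0.105) had larger or similar estimates with wider errors and did not pass. The knockdown was of 1 derivative with 1 array per treatment, so the derivation of the line and the knockdown cannot be told apart.

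**Figure D2:**
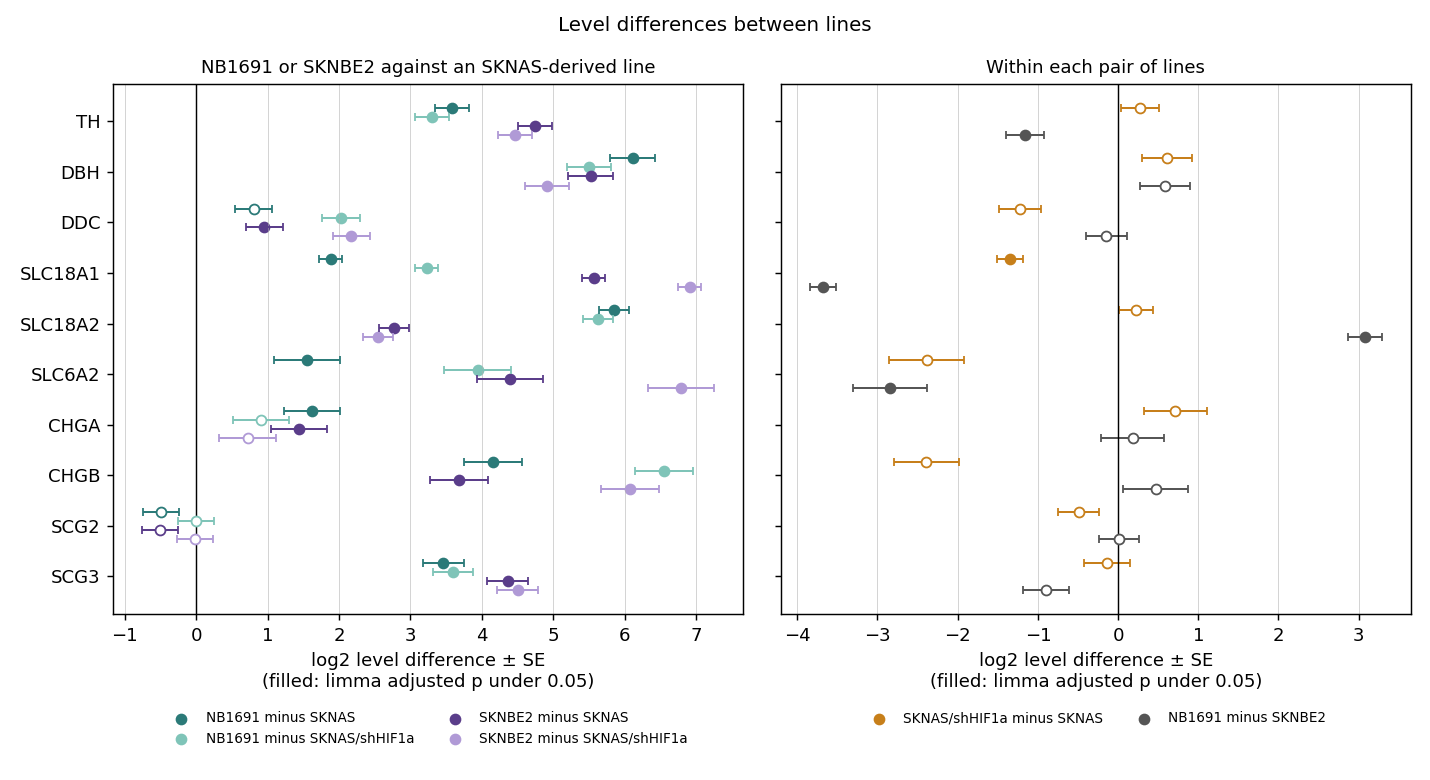
Log2 level differences between lines (horizontal axes, ± SE from limma) for the 10 genes (vertical axis), with NB1691 or SKNBE2 against an SKNAS-derived line at left and the contrasts within each pair at right. Filled points passed an adjusted p of 0.05. At left 9 of the 10 genes lie above 0 in all 4 contrasts and SCG2 does not. The share of all genes that do so was not counted. At right SLC18A2 (3.08) and SLC18A1 (-3.68) lie on opposite sides for NB1691 minus SKNBE2.

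With ciclopirox the 10 genes differed from vehicle by at most 1.67 log2 units, in directions that varied by line. Averaged over the lines, 0 of the 10 members were called (limma with the line as a block), as were 0% of all tested genes, where the smallest adjusted p was 0.121. One member, CHGA, had an unadjusted p under 0.05, against 17.9% of all genes. CHGA had changes of -1.05 in NB1691, 0.04 in SKNBE2, -1.67 in SKNAS/shHIF1a and -0.56 in SKNAS. Its mean was -0.81 ± 0.28 (limma's moderated SE, n = 4 lines, unadjusted p = 0.0276, adjusted p = 0.233). CHGB had -1.52 in NB1691, 0.21 in SKNBE2, -1.04 in SKNAS/shHIF1a and -0.42 in SKNAS (mean -0.69 ± 0.29, adjusted p = 0.286). Both chromogranins were thus below vehicle in every line except SKNBE2. The secretogranins had positive means instead. SCG2 had changes of 0.59 in NB1691, 0.83 in SKNBE2, -0.03 in SKNAS/shHIF1a and 0.11 in SKNAS (mean 0.37 ± 0.18, adjusted p = 0.327). For SCG3 the changes were 0.20 in NB1691, 0.31 in SKNBE2, -0.27 in SKNAS/shHIF1a and 0.89 in SKNAS (mean 0.28 ± 0.20, adjusted p = 0.492).

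The enzymes had mean changes of -0.32 ± 0.17 for TH (adjusted p = 0.363), -0.34 ± 0.18 for DDC (adjusted p = 0.378) and -0.40 ± 0.22 for DBH (adjusted p = 0.381). TH had changes of -0.84 in NB1691, -0.17 in SKNBE2, -0.31 in SKNAS/shHIF1a and 0.02 in SKNAS, and in the SKNAS-derived lines its readings were near those of probe sets without signal. DBH was below vehicle by more than 1 log2 unit in SKNAS/shHIF1a (-1.04) and above it in SKNBE2 (0.28). DDC was at -0.82 in SKNAS and 0.20 in SKNBE2, and both of its probe sets had these signs. The vesicular transporters had the smallest means, -0.02 ± 0.11 for SLC18A1 (adjusted p = 0.941) and 0.07 ± 0.15 for SLC18A2 (adjusted p = 0.838) with changes of at most 0.40, in NB1691 for SLC18A2. The second SLC18A2 probe set changed by 1.05 in that line and had the opposite sign in SKNAS (0.17 against -0.19).

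SLC6A2 changed most unevenly. The changes were 0.18 in NB1691, 0.39 in SKNBE2, -1.14 in SKNAS/shHIF1a and -1.30 in SKNAS, with a mean of -0.47 ± 0.33 (adjusted p = 0.49). The difference in change between NB1691 with SKNBE2 and the SKNAS-derived lines was 1.50 ± 0.24, with an unadjusted p of 0.00117 and an adjusted p of 0.181. In the test of that difference 0 of 10 members were called (limma), against 0.0344% of all genes, and 2 members, SLC6A2 and SCG2 (0.67 ± 0.24, adjusted p = 0.411), had an unadjusted p under 0.05, against 11.3% of all genes. The 5 SLC6A2 probe sets at or above the filter all lay below 0 in SKNAS (-1.61 to -0.76) and all above 0 in SKNBE2 (0.08 to 0.92). In SKNAS/shHIF1a they ran over -1.14 to 0.77 with 4 below 0, and in NB1691 over -0.73 to 0.76 with 2 below 0. The probe sets therefore disagreed in sign in NB1691 and SKNAS/shHIF1a.

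**Figure D3:**
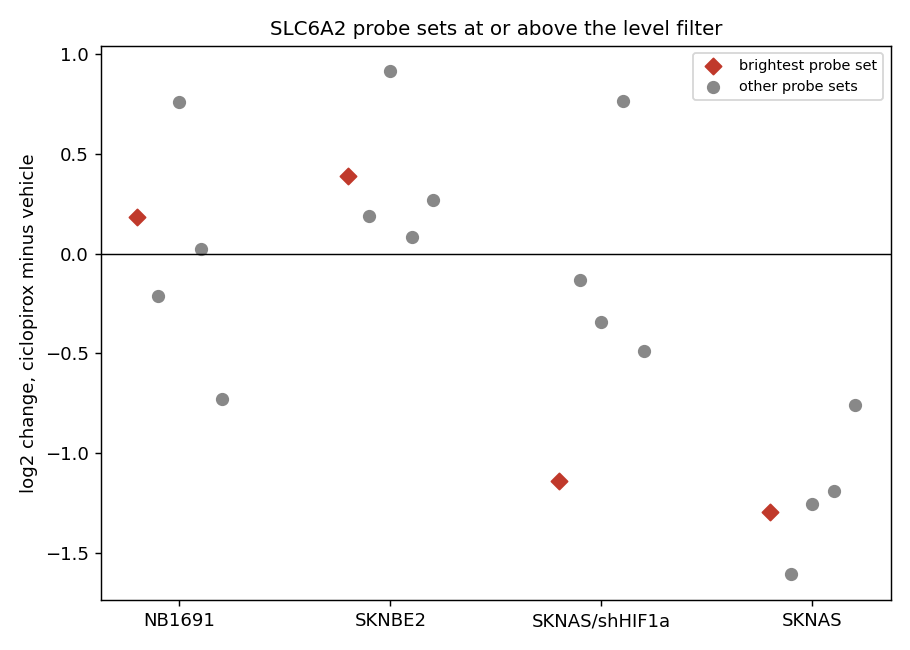
Log2 change of SLC6A2 (vertical axis, ciclopirox minus vehicle) in each line (horizontal axis) for the 5 probe sets at or above the level filter, with the brightest as red diamonds. All 5 lie below 0 in SKNAS (-1.61 to -0.76) and above 0 in SKNBE2 (0.08 to 0.92), with mixed signs in NB1691 and SKNAS/shHIF1a.

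Line by line, with 1 array per treatment and therefore no test, the direction of the members varied. Members were counted on their brightest probe set, although the other SLC18A2 probe set rose by 1.05 in NB1691. In NB1691 5 were above and 5 below vehicle, and 2 (CHGA and CHGB) were at least 2-fold lower and 0 at least 2-fold higher, against 5.12% of all genes lower and 3.31% higher. In SKNBE2 9 were above and 1, TH, below, with 0 members past 2-fold either way, against 2.11% of all genes higher and 1.25% lower. In SKNAS/shHIF1a 0 were above and 10 below. There 4 (CHGA, SLC6A2, DBH and CHGB) were at least 2-fold lower and 0 higher, against 4.31% of all genes lower and 5.52% higher. For SLC6A2 and DBH only the brightest probe set was 2-fold lower. Their other probe sets at or above the filter changed by -0.49 to 0.77 for SLC6A2 and -0.33 for DBH. In the same line 8 of 8 noradrenergic markers, TH and DBH among them, were below vehicle (median change -0.75, 3 at least 2-fold lower). There 6 of 7 mesenchymal markers were above it (median 0.26, 2 at least 2-fold higher), with CD44 at 10.90 with ciclopirox against 8.64 with vehicle. Of the immune markers, PTPRC read 6.34 with ciclopirox against 9.57 with vehicle, and CD68 went the other way, with 4.30 against 3.06. In SKNAS 7 of 8 noradrenergic markers were below vehicle (median -0.64, 3 at least 2-fold lower) and 6 of 7 mesenchymal markers above it (median 0.23). In NB1691 8 of 8 noradrenergic markers were below vehicle (median -0.40, 0 at least 2-fold lower) and 3 of 7 mesenchymal markers above it. In SKNBE2 4 of 8 noradrenergic markers were below vehicle and 3 of 7 mesenchymal markers above it. The part of these markers in the members' changes was not tested. In SKNAS 3 members were above and 7 below, and 1 (SLC6A2) was at least 2-fold lower and 0 higher, against 1.62% of all genes lower and 3.38% higher. The median change of the members was -0.18 in NB1691, 0.21 in SKNBE2, -0.31 in SKNAS/shHIF1a and -0.31 in SKNAS, beside -0.02, -0.01, -0.03 and -0.02 over all genes in these lines. The share of all genes below vehicle was 51.1% to 52.8% in every line.

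**Figure D4:**
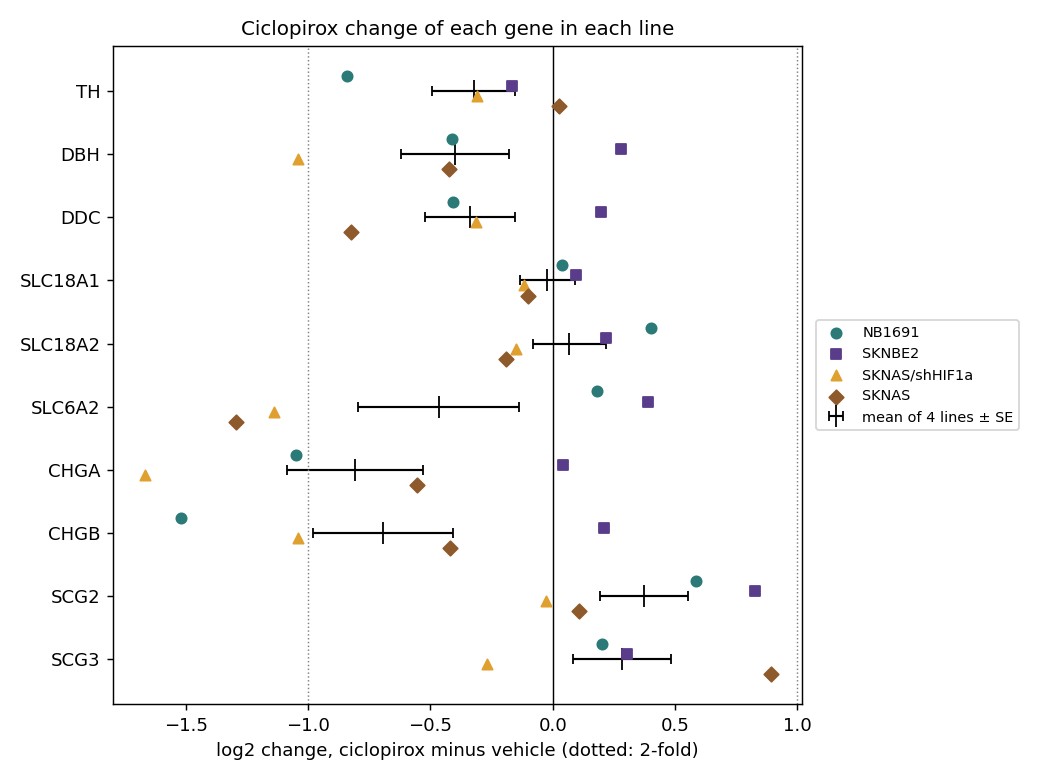
Log2 change with ciclopirox (horizontal axis, ciclopirox minus vehicle) of the 10 genes (vertical axis) in each line, read from the brightest probe set. Black bars give the mean over the 4 lines ± limma's moderated SE, and dotted lines mark 2-fold. CHGA and CHGB lie below 0 in 3 lines and just above it in SKNBE2, whose 9 of 10 changes are positive, while all 10 changes of SKNAS/shHIF1a are negative.

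Other genes of the same pathway were read from lists of related function. In the ciclopirox comparison limma called 0 genes in each of the 6 lists. Of 14 tested genes of cofactor supply, breakdown and uptake, 0 were called. An unadjusted p under 0.05 was seen in 3, all with negative means, against 17.9% of all genes. These were CYB561 and, named after their values were seen, SPR (-0.37 ± 0.14, unadjusted p = 0.0393) and QDPR (-0.43 ± 0.17, unadjusted p = 0.046), which make and recycle the pterin cofactor of TH. CYB561, the granule membrane cytochrome that feeds electrons to DBH through ascorbate, was at 8.99 with ciclopirox and 10.04 with vehicle in NB1691, and at 10.39 with ciclopirox and 11.27 with vehicle in SKNBE2. In SKNAS/shHIF1a it was at 8.04 with ciclopirox and 8.40 with vehicle, and in SKNAS at 9.75 with ciclopirox and 10.30 with vehicle. Its mean change was -0.71 ± 0.16, below vehicle in 4 of 4 lines (adjusted p = 0.153). PCBD2, a pterin carbinolamine dehydratase, had the second largest mean, -0.51 ± 0.25, and was not among the 3 (unadjusted p = 0.0914, adjusted p = 0.341).

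Mean changes of granule genes had either sign, and 0 were called. The unadjusted counts below stand against 17.9% of all genes with an unadjusted p under 0.05. Of 7 peptide-processing genes 1 had an unadjusted p under 0.05, CPE, which trims peptide precursors (-0.71 ± 0.29, unadjusted p = 0.0485, named after its value was seen), and of 21 genes of granule biogenesis and membrane 3 did, 2 with positive and 1 with negative means. SCG5, the chaperone of prohormone convertase 2, had changes of -1.20 in NB1691, 0.18 in SKNBE2, 4.81 in SKNAS/shHIF1a and 1.89 in SKNAS, so its mean of 1.42 ± 0.92 rests largely on SKNAS/shHIF1a (unadjusted p = 0.174, adjusted p = 0.45). In that line SCG5 read 9.62 with ciclopirox against 4.81 with vehicle. QPCT, which caps peptides with pyroglutamate, had a mean of -0.71 ± 0.35 (unadjusted p = 0.09, adjusted p = 0.338). PTPRN, a receptor-type phosphatase of the granule membrane also called IA-2, had 0.69 in NB1691, 0.21 in SKNBE2, 0.79 in SKNAS/shHIF1a and 1.17 in SKNAS (mean 0.72 ± 0.18, adjusted p = 0.17), and RAB3C had a mean of -0.62 ± 0.24 (adjusted p = 0.273). The third of these genes past an unadjusted p of 0.05 was SV2A (0.31 ± 0.11, unadjusted p = 0.0288), also named after its value was seen. Of 23 genes of regulated exocytosis 2 had an unadjusted p under 0.05, both with negative means: STXBP5L, a tomosyn that restrains SNARE assembly (-0.61 ± 0.16, adjusted p = 0.181), and the complexin CPLX1 (-0.49 ± 0.15, unadjusted p = 0.016, named after its value was seen). CADPS2, a priming factor of dense-core vesicles, had a mean of -0.57 ± 0.26 and was not among them (unadjusted p = 0.069, adjusted p = 0.309).

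The list with most genes past an unadjusted p of 0.05 was that of 18 transcription factors of sympathoadrenal genes, with 4 positive and 5 negative means and 0 called. Of all genes 17.9% were past that p. INSM1, a zinc-finger factor of sympathoadrenal and endocrine cells, was at 9.04 with ciclopirox and 10.13 with vehicle in NB1691, and at 5.10 with ciclopirox and 5.69 with vehicle in SKNBE2. It read 7.14 with ciclopirox and 8.39 with vehicle in SKNAS/shHIF1a, and 4.79 with ciclopirox and 5.86 with vehicle in SKNAS. Its changes of -1.09 in NB1691, -0.59 in SKNBE2, -1.25 in SKNAS/shHIF1a and -1.08 in SKNAS were below vehicle in 4 of 4 lines. Their mean had an SE of 0.15 and an adjusted p of 0.121, equal to the smallest of the whole comparison. EGR1, an immediate-early factor known to bind the TH promoter in rodents, had a mean of 0.93 ± 0.17 (adjusted p = 0.14).

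In levels, the same lists held called genes in NB1691 and SKNBE2 against the SKNAS-derived lines. Of all tested genes 1.27% were called higher and 2.4% lower in this comparison. Among the transcription factors 3 of 18 were higher and 0 lower: HAND1 by 5.60 ± 0.32 (adjusted p = 0.0155), ISL1 by 3.13 ± 0.34 (adjusted p = 0.0404) and PHOX2A, a homeobox activator of DBH, by 2.63 ± 0.26 (adjusted p = 0.0361). Of the 23 exocytosis genes 3 were higher, the complexins CPLX1 (5.17 ± 0.53, adjusted p = 0.0381) and CPLX2 (3.72 ± 0.38, adjusted p = 0.0381) and the SNARE SNAP25 (1.62 ± 0.19, adjusted p = 0.0468). The synaptotagmin SYT4 was lower (-1.82 ± 0.21, adjusted p = 0.0449). PCSK1N, the proSAAS precursor, was higher by 2.40 ± 0.18 (adjusted p = 0.0239), 1 of 7 processing genes. PTPRN2, the partner of PTPRN, was higher by 4.03 ± 0.46 (adjusted p = 0.0442), 1 of 21 biogenesis genes. MOXD1, a monooxygenase related to DBH, was lower by 4.81 log2 units (-4.81 ± 0.58, adjusted p = 0.0468), 1 of 14 genes in its list, with readings of 2.45 to 2.98 in NB1691 and SKNBE2, at the level of probe sets without signal. Like the member calls, each of these ended without SKNAS and without SKNAS/shHIF1a, where 0 genes were called. With no filter on low levels MOXD1, PTPRN2, CPLX1 and ISL1 did not pass (adjusted p of 0.0507 to 0.0626), with probe sets averaged MOXD1, CPLX2 and SNAP25 did not (0.0506 to 0.0648), and on the 4 vehicle arrays alone MOXD1, PCSK1N, PTPRN2, CPLX2, SYT4 and PHOX2A did not (0.0502 to 0.0959). Without NB1691 the calls of MOXD1, PTPRN2 and ISL1 ended (0.0549 to 0.0663).

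**Figure D5:**
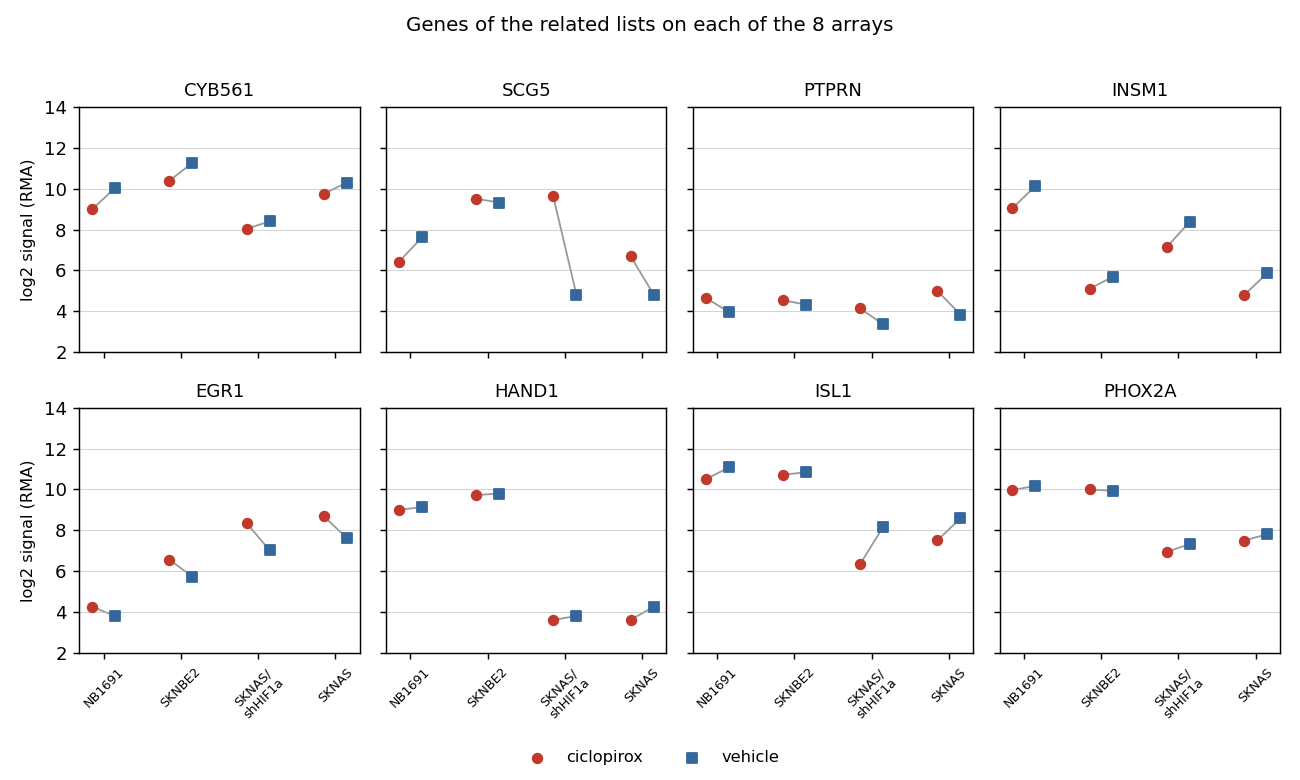
Log2 signal (RMA, vertical axes) on the 8 arrays of 8 genes from the related lists, with ciclopirox as red circles and vehicle as blue squares, joined within a line (horizontal axes). CYB561 and INSM1 lie below vehicle in all 4 lines, SCG5 in SKNAS/shHIF1a reads 9.62 with ciclopirox against 4.81 with vehicle, and HAND1, ISL1 and PHOX2A are high in NB1691 and SKNBE2.

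Between SKNAS/shHIF1a and SKNAS, 8 genes of the lists were called, against 0.744% of all genes called higher and 0.84% called lower. Of 18 transcription factors 1 was higher in SKNAS/shHIF1a and 3 were lower. INSM2 (-6.46 ± 0.30, adjusted p = 0.00116) and TFAP2B (-6.14 ± 0.42, adjusted p = 0.00396), a neural crest factor, were lower and kept the call with any 1 of the 4 arrays left out. Both read 2.57 to 3.04 in SKNAS/shHIF1a, the level of probe sets without signal, so the sizes of these differences are limited by that floor. GATA2 was also lower (-2.00 ± 0.22, adjusted p = 0.015), and INSM1 was higher by 2.44 ± 0.21 (adjusted p = 0.00662). CYB561 (-1.81 ± 0.22, adjusted p = 0.02) and MOXD1 (-1.44 ± 0.16, adjusted p = 0.0151) were lower, 2 of 14 genes in their list. SYTL4, a RAB27 effector on granules, was lower (-2.06 ± 0.27, adjusted p = 0.0261, with 3.59 and 3.55 in SKNAS/shHIF1a) and the motor MYO5A was higher by 1.67 ± 0.23 (adjusted p = 0.0319), out of 21 biogenesis genes. Leaving out any 1 of the 4 arrays ended the calls of GATA2 (adjusted p of 0.0707 to 0.167), MOXD1 (0.0684 to 0.178), SYTL4 (0.0964 to 0.215) and MYO5A (0.117 to 0.298). The call of INSM1 ended without the ciclopirox (adjusted p = 0.0945) or the vehicle array (adjusted p = 0.0963) of SKNAS. For CYB561 it ended without the vehicle array of SKNAS/shHIF1a (adjusted p = 0.0865), the ciclopirox array of SKNAS (0.228) or the vehicle array of SKNAS (0.163). With probe sets averaged CYB561 (adjusted p = 0.0806) and SYTL4 (0.173) did not pass.

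The members tracked one another across the arrays to different degrees. Over the 8 arrays, which come from only 4 lines in pairs, Pearson's r was 0.98 between TH and SCG3, 0.96 between TH and DBH, 0.97 between SLC18A1 and SLC6A2 and 0.51 between SLC18A1 and SLC18A2. SCG2 had negative r with each of the other 9 members, between -0.57 with CHGA and -0.10 with DDC. Among all tested genes the 3 with the highest r to DBH were SCN3B (0.997), SLCO5A1 (0.996) and LAMA4 (0.995), and the 3 with the highest r to CHGA were NOL9 (0.977), PC (0.967) and IGFBPL1 (0.963). These values describe 8 points that share lines and are given without a test.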

How the data were processed

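Expression was measured on 8 Affymetrix arrays (biotinylated cRNA made with a 3' IVT kit from RNeasy total RNA). The deposited values are log2 signals that the authors made with RMA, per the submitters' processing notes; no version is given, and depth has no meaning here, so the number of arrays limits precision. Of 54715 probe sets, 102 were controls, 40914 carried 1 symbol, 864 several and 12835 none in the annotation supplied. A gene was read from its brightest 1-symbol probe set and tested if its mean was at least log2 3.21, the 40th percentile over all probe sets. Fits used limma 3.58.1 in R 4.3.3, two-sided, with Benjamini-Hochberg adjustment over 14517 genes and a threshold of 0.05. They were tested on simulated data. Each SE is limma's moderated SE, which draws in part on the spread of all tested genes. Treatment was fitted with line terms (residual df 3, prior df 2.98), level differences between the line groups on 4 line means, differences in change on 4 changes (residual df 2 each), and single-line contrasts with line and treatment terms over 8 arrays, in which the 2 arrays of a line are its ciclopirox and its vehicle array.

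The pairing of arrays follows from their shared line, and the deviations of paired arrays correlated across genes with r = 0.867 in NB1691, 0.885 in SKNBE2, 0.817 in SKNAS/shHIF1a and 0.898 in SKNAS. The labels name no separate cultures, and no line and treatment had a repeat from which technical spread could be measured. The p-values of the ciclopirox test and of the single-line contrasts rest on how unevenly the lines changed with treatment. Those of the line-group tests rest on the spread between lines, or between their changes, within a group. Technical differences between arrays are part of these spreads and cannot be told apart. The members, lists and tests were chosen with earlier results of these data known. All members are named in each comparison; from each other list, the 3 largest called genes in each direction are named, or for ciclopirox, where none passed, the 2 with the largest mean change, and neighbours are printed for DBH and CHGA. In the 4 contrasts of NB1691 or SKNBE2 with one SKNAS-derived line, list genes are given as counts only. Alternatives tried were other filters, averaging the probe sets of a gene, each other probe set, median centring, quantile normalization, an intensity trend, no line block, averaging SKNAS with its derivative, vehicle arrays alone, line terms over 8 arrays, only the compared lines, and leaving out lines or arrays. SKNAS was averaged with its derivative only for the ciclopirox comparison and the difference in change, not for the levels. Promoter windows are RefSeq's, and motifs were searched on both strands in the 250 bases before the start, leaving out the 50 bases after it.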

Additional observations from a re-analysis of the deposited data

Results flagged for a closer look

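For 3 members every change with ciclopirox was positive in NB1691 and SKNBE2 and negative in SKNAS/shHIF1a and SKNAS, which is why they are listed here. The difference in change between these line groups was 0.18 ± 0.22 for SLC18A1 (adjusted p = 0.816), 0.48 ± 0.23 for SLC18A2 (adjusted p = 0.516) and 1.50 ± 0.24 for SLC6A2 (adjusted p = 0.181), in limma over 4 changes, and none of the 3 passed. In SLC6A2 these signs were seen in 2 of the 5 probe sets at or above the filter, and in SLC18A2 the second probe set had a change of 0.17 in SKNAS. No level or change of a member on 1 line stood apart from the other 3 by Dixon's criterion.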

How the results depend on the processing

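The ciclopirox comparison called 0 members and 0 genes under every alternative tried, with or without the line as a replicate block, and the difference in change called 0 members under every one, and 0 to 9 genes against 5. The count of 3 members in NB1691 and SKNBE2 over the SKNAS-derived lines became 9 when 8 arrays with line and treatment terms were used, which treats the arrays of a line as repeats, and 0 to 5 with 1 line left out, while the count over all genes, 534, ran over 0 to 6643. In SKNAS/shHIF1a against SKNAS the count of 1 became 2 with an intensity trend, 3 with only the 4 arrays of these lines and 0 with any array left out (all genes 23 to 393 against 230). NB1691 against SKNBE2 gave 2 to 4 members with an array left out against 4, and 2 to 5 over all alternatives, the 5 with only the 4 arrays of these lines (all genes over all alternatives 1659 to 3872 against 3640). All-gene counts ran over 2513 to 5674 against 5470 for NB1691 over SKNAS, 1813 to 4669 against 4485 for SKNBE2 over SKNAS, 3020 to 5618 against 5406 for NB1691 over SKNAS/shHIF1a and 2232 to 4717 against 4513 for SKNBE2 over SKNAS/shHIF1a.

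Signs turned only in values that passed no test. The mean change of SLC18A1 became 0.0084 with SKNAS and its derivative averaged and -0.06 to 0.011 with a line left out, that of SLC18A2 ran over -0.0422 to 0.1556, and other SLC6A2 probe sets gave 0.019, 0.077 and 0.0525, the last 2 of them below the filter. SCG2 in NB1691 minus SKNAS/shHIF1a turned to -0.0099 after centring and -0.0037 after quantile normalization. With a line or array left out, the difference in change ran over -0.6376 to 0.5216 for SCG3 and -0.7904 to 0.938 for CHGB, and SCG3 in SKNAS/shHIF1a minus SKNAS over -0.5431 to 0.2683. In NB1691 minus SKNBE2 the ranges were -0.3826 to 0.7506 for CHGA, -0.1302 to 1.0713 for CHGB, -0.2878 to 0.3175 for SCG2 and -0.5015 to 0.2114 for DDC. SCG2 ran over -0.2679 to 0.2681 in NB1691 minus SKNAS/shHIF1a and -0.3174 to 0.2878 in SKNBE2 minus SKNAS/shHIF1a. Where no reason is given, the cause was not tested. Low signals compress differences, so those of TH, whose readings in the SKNAS-derived lines were near those of probe sets without signal, may be understated.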

Other observations

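The levels of NB1691 and SKNBE2 also differed in genes of granule release and of cofactor supply. Of 21 genes of granule biogenesis and membrane 6 were higher and 1 lower in NB1691, led by SYTL4 (8.03 ± 0.27, adjusted p = 9.73e-05) and the small GTPase RAB3B (5.28 ± 0.39, adjusted p = 0.000538) and then RPH3AL (2.16 ± 0.19, adjusted p = 0.00107), with RAB27A lower (-1.03 ± 0.17, adjusted p = 0.00858). Of 23 exocytosis genes 5 were higher and 4 lower, with the synaptotagmin SYT13 (3.38 ± 0.35, adjusted p = 0.00189) and STXBP5L (3.08 ± 0.23, adjusted p = 0.000564) higher, CPLX1 lower (-1.37 ± 0.21, adjusted p = 0.00709) and rabphilin, RPH3A, lower (-2.89 ± 0.36, adjusted p = 0.0034). The active-zone genes split, RIMS1 being higher (2.65 ± 0.16, adjusted p = 0.000271) and RIMS2 lower (-2.65 ± 0.29, adjusted p = 0.00236). Carboxypeptidase E, CPE, which trims peptide precursors, was higher by 3.84 ± 0.40 (adjusted p = 0.00196), and the granin VGF was lower (-2.30 ± 0.28, adjusted p = 0.00313). Of 14 cofactor, breakdown and uptake genes 2 were higher and 3 lower. GCHFR, the feedback regulator of the enzyme that starts synthesis of the TH cofactor, was higher by 4.89 ± 0.28 (adjusted p = 0.000232), and so was the amine-degrading oxidase MAOA, by 3.62 ± 0.58 (adjusted p = 0.00829, and 0.0682 without the ciclopirox array of SKNBE2). PCBD2 (-1.73 ± 0.36, adjusted p = 0.0191), CYB561 (-1.31 ± 0.22, adjusted p = 0.00945) and PTS, an enzyme of pterin synthesis (-1.04 ± 0.18, adjusted p = 0.011), were lower. Of 18 transcription factors 2 were higher and 5 lower. INSM1 was higher by 4.19 ± 0.21 (adjusted p = 0.000169) and the repressor REST by 1.84 ± 0.37 (adjusted p = 0.0178), and EGR1 (-2.12 ± 0.24, adjusted p = 0.0025), INSM2 (-1.61 ± 0.30, adjusted p = 0.0135) and CREB1 (-0.99 ± 0.17, adjusted p = 0.00972) were the 3 furthest below. With 1 of the 4 arrays of these lines left out, the calls of PCBD2, CYB561, PTS, RAB27A, CPLX1, REST, INSM2 and CREB1 ended in at least 1 case (adjusted p of 0.0548 to 0.126), and that of REST also with probe sets averaged (0.0697). Of all tested genes 12.9% were called higher and 12.2% lower in this contrast.

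Of the 6 genes on the cholinergic list 3 reached the level filter, and 0 were called with ciclopirox. Of these 3, 2 had an unadjusted p under 0.05, against 17.9% of all genes. CHRNA3, a nicotinic receptor subunit of autonomic neurons, had changes of -0.17 in NB1691, -0.44 in SKNBE2, -1.71 in SKNAS/shHIF1a and -1.55 in SKNAS (mean -0.97 ± 0.29, adjusted p = 0.209). CHRNB4, its partner subunit, had a mean of -0.58 ± 0.20 (adjusted p = 0.236). In the comparison of NB1691 and SKNBE2 with the SKNAS-derived lines 0 of the 3 were called in limma. An unadjusted p under 0.05 was seen in 1, against 23.2% of all genes.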
